A study of Homo sapiens with 12 samples.

Results

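The clustered histone genes were examined as one family: every protein-coding row of the count table whose symbol follows the older naming of the histone clusters (HIST1, HIST2, HIST3 or HIST4, followed by H1, H2A, H2B, H3 or H4). This rule, which uses names and no measured value, took 71 genes of 58735. They comprise 6 genes for the linker histone H1, 17 for H2A, 18 for H2B, 15 for H3 and 15 for H4. In the deposited coordinates (GRCh38), the 55 HIST1 genes lie on chromosome 6 between 25726132 and 27893843. The 12 HIST2 genes and 3 HIST3 genes lie on chromosome 1, and HIST4H4 lies on chromosome 12.

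The study asked what GFI1, a transcriptional repressor with zinc fingers best known from haematopoiesis, does in lung cancer cells grown with or without attachment. RNA-Seq was performed on A549 cells, an established human lung adenocarcinoma line, in 4 groups of 3 libraries. The attached control and floating control cells were labelled with the genotype control, and the attached GFI1 and floating GFI1 cells expressed GFI1. Floating cells had been forced into suspension for 48 hours, and attached cells were untreated. GFI1 was delivered by a lentivirus in which a human PGK promoter drives GFI1 together with GFP. The paper's section on GFI1 overexpression states that cells sorted for GFP were sequenced, so the GFI1 cells are a transduced population, not a clone. It does not say whether the control cells sequenced were sorted too. For its mouse experiments, the paper describes control A549 cells with an empty vector. The labels do not say whether control cells carried an empty vector, so GFI1 expression and transduction cannot be told apart where they did not. Nothing states that replicates were separate cultures, and p values then measure only the spread between these libraries.

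Histone proteins package DNA: the core histones (H2A, H2B, H3 and H4) form the nucleosome, and H1 binds the DNA that enters and leaves it. Most clustered histone genes have no introns and are transcribed in S phase, when new DNA must be packaged. Their mRNA usually ends just after a conserved stem-loop, which the stem-loop binding protein SLBP holds, and has no poly-A tail. Several of these genes can also give a polyadenylated transcript, from a poly-A site farther downstream, outside S phase or in differentiating cells. According to the study's methods, mRNA was captured with poly-T beads, so the counts below reflect the transcripts of these genes that were polyadenylated or otherwise retained. The labels give the molecule as total RNA.

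The stem-loops of the genes that the results turn on are shown first. The mRNA of clustered histone genes usually ends just after them, and the deposited gene models end on different sides of them. Each line gives the stem-loop in capitals with 5 bases on either side, read 5′ to 3′ on the gene's strand from GRCh38.
HIST1H1C (chr6:26055744-26055759, minus strand): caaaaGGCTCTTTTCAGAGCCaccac
HIST1H2AC (chr6:26124669-26124684, plus strand): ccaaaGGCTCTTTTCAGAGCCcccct
HIST2H2AC (chr1:149887391-149887406, plus strand): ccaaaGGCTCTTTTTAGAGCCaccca
HIST1H2BK (chr6:27146366-27146381, minus strand): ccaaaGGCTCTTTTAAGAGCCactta
HIST1H2BD (chr6:26158587-26158602, plus strand): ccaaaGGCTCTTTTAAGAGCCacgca
HIST2H2BE (chr1:149886188-149886203, minus strand): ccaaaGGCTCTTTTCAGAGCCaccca
HIST1H3H (chr6:27810516-27810531, plus strand): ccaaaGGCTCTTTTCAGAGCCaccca
HIST1H4H (chr6:26285131-26285146, minus strand): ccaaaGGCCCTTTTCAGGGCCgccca
HIST1H4I (chr6:27139654-27139669, plus strand): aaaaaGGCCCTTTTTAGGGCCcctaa

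The stem-loop was searched as 16 bases, those in capitals on the HIST1H1C line, with up to 3 mismatches, in the 150 bases after the stop codon. It was found in all 66 clustered histone genes that GENCODE v44 lists under the same identifier, starting 23 to 63 bases after the stop codon. Of 19554 other coding genes, 25 (0.128%) held a match. The 16 bases took 10 forms. The form on the HIST1H1C line was found in 36 genes for H1, H2A, H2B and H3, and the form on the HIST1H4H line, which differs in both arms of the stem, was found in 10 genes, all for H4.

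The deposited gene models differ in how far they run past the stem-loop, which sets the part of a transcript over which reads were counted. For 35 genes the deposited model ends before the end of the stem-loop, and these hold 38.4% of the family's counts. For 6 genes it ends at most 100 bases past the stem-loop (1.49% of counts), and for 25 genes farther away (59.2%). The remaining 5 genes were not located in the newer annotation and hold 0.941%. The models of HIST1H2BK and HIST1H1C, the genes with the most counts, end 52 and 43 bases before the end of the stem-loop and hold only the coding sequence. The model of HIST1H2AC runs 14432 bases past it and that of HIST1H4H 7522 bases past it. The poly-A signal AATAAA lay within 100 bases after the stem-loop in 2 genes, HIST1H1C and HIST1H2BD, in both cases 13 bases away.

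Few of the family's genes carried many counts. Levels are given as CPM, in which the counts of a library are divided by its size after TMM scaling. Of the 71 genes, 26 had enough counts to be tested and 45 did not. Total counts per library ran from 17014188 to 20748677, and the family held from 1945 to 4546 of them. The 2 genes with the most counts, HIST1H2BK and HIST1H1C, held 35.8% of the family's counts, and the top 5 held 63.5%. Relative to the deposited gene length, the mean level over all libraries was 89.0 CPM per kb for HIST1H2BK and 42.2 CPM per kb for HIST1H1C. HIST1H2BD followed at 14.8 CPM per kb, HIST1H2AC at 13.1 and HIST1H4I at 7.75. The values per kb of HIST1H2BK and HIST1H1C are relative to models without the stem-loop.

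Among the 45 genes too low to test, 4 reached 10 counts in some library. HIST3H3, which encodes a testis H3, reached 15 counts in its highest library, HIST1H1D and HIST1H2BL reached 11, and HIST2H4B reached 10. Another 8 genes had 6 to 9 counts in their highest library: HIST1H4K, HIST1H3C, HIST1H3J, HIST1H3G, HIST1H2BH, HIST1H4C, HIST2H2AA3 and HIST1H4D. The highest count was 4 or 5 in HIST1H3A, HIST2H2AA4, HIST1H2AL, HIST1H4J, HIST2H4A, HIST1H3F and HIST1H2AJ. It was 1 to 3 in 17 genes, namely HIST1H2AH, HIST1H2BM, HIST1H2AB, HIST1H4A, HIST2H2AB, HIST1H1T, HIST1H2BI, HIST1H2BB, HIST1H4B, HIST1H3I, HIST2H3A, HIST1H1B, HIST1H1A, HIST1H2BG, HIST1H4L, HIST1H2AE and HIST2H3C. The last 9 genes had 0 counts in all libraries: HIST1H2AA, HIST1H2AD, HIST1H2AK, HIST1H2AM, HIST1H2BA, HIST1H3D, HIST1H4F, HIST1H4G and HIST2H3PS2. At this depth, a count of 0 allows up to 3 counts per library. Of these 9, 5 overlap another annotated gene, so reads there could have been left unassigned. Of the tested genes, 4 overlap another gene: HIST2H2BF, HIST1H2BD, HIST1H2BE and HIST1H2BN. Coding sequences were compared among members of the same length, which was possible for 56 of the 71 genes. The coding sequences of 6 of these are identical to that of another member (HIST2H4A and HIST2H4B, HIST2H3A and HIST2H3C, HIST1H4J and HIST1H4K), and their counts are uncertain, since shared reads could have been split or dropped. Among the 22 tested genes so compared, the highest identity to another member was 97.1%.

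**Figure D1:**
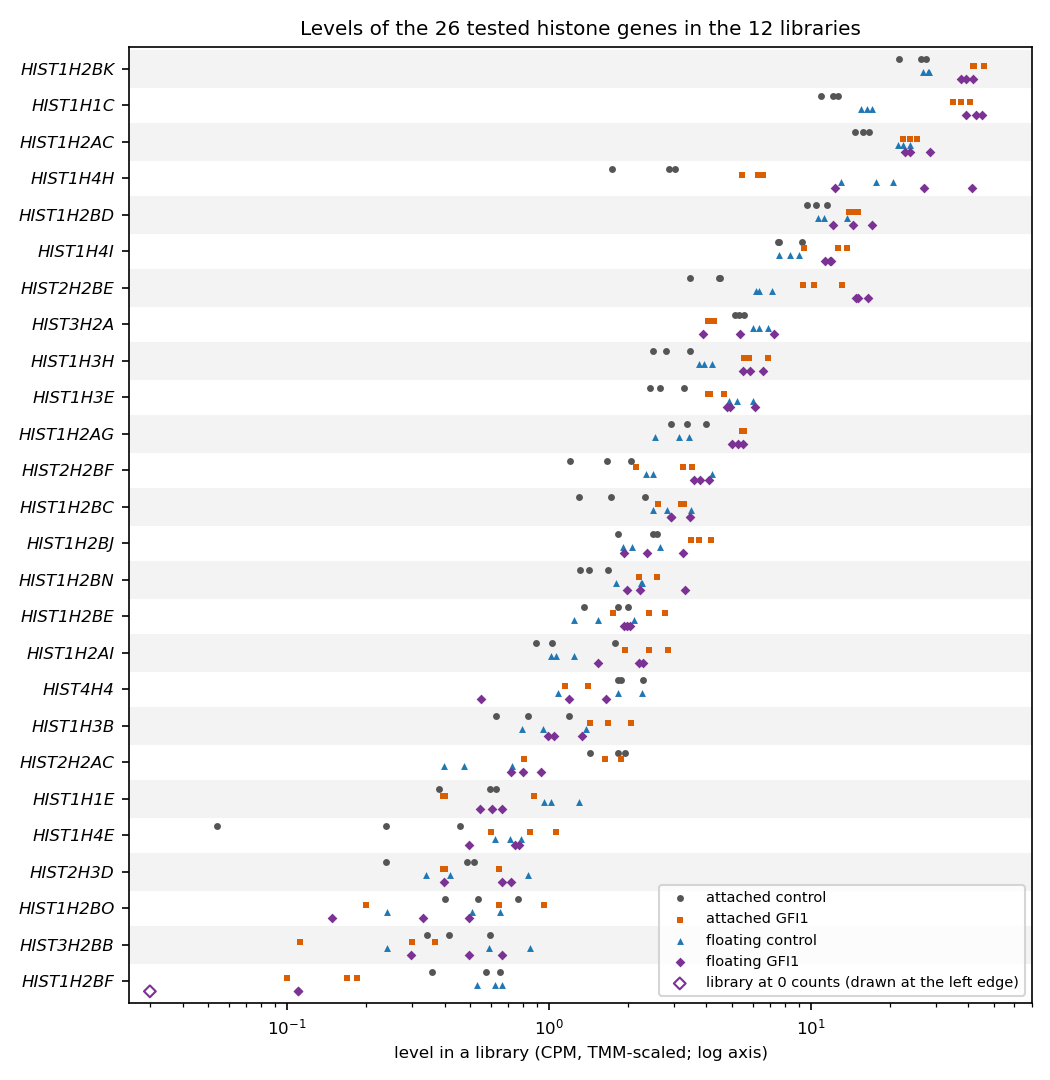
Level of each of the 26 tested histone genes (rows, ordered by mean level) in the 12 libraries, in TMM-scaled CPM on a log axis, with symbols for the 4 groups. HIST1H2BK and HIST1H1C lie at the top, HIST1H4H separates floating from attached libraries, and 1 floating GFI1 library of HIST1H2BF was at 0 counts and is drawn at the left edge.

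The family as a whole was compared first. The summed level of the 71 genes was 116, 108 and 117 CPM in attached control libraries and 199, 201 and 191 CPM in attached GFI1 libraries. It was 157, 153 and 150 CPM in floating control libraries and 222, 251 and 197 CPM in floating GFI1 libraries. The 4 means were 113.8 ± 4.88, 196.9 ± 4.91, 153.4 ± 3.64 and 223 ± 27.0 CPM (SD, n = 3 each), and no control library reached the level of a GFI1 library in either state. As a share of all counts, the family held 0.0108% ± 0.000486 in attached control, 0.0206% ± 0.000428 in attached GFI1, 0.0147% ± 0.000247 in floating control and 0.0234% ± 0.00267 in floating GFI1 cells (SD, n = 3 each). These sums are descriptions and were not tested.

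By class, H1 had the largest ratio between GFI1 and control cells, in attached cells with a summed level of 12.7 ± 0.999 CPM in attached control and 38.7 ± 2.55 CPM in attached GFI1 cells, nearly all of it HIST1H1C. H2B genes summed to 51.1 ± 4.79 and 84.9 ± 6.49 CPM in the same groups, H2A genes to 27.9 ± 1.42 and 38.1 ± 2.32, and H3 genes to 8.28 ± 0.790 and 14.0 ± 1.06. H4 genes summed to 13.9 ± 1.62 CPM in attached control and 28.8 ± 4.45 CPM in floating control cells (SD, n = 3 each), and HIST1H4H alone made this difference. Without HIST1H4H, the H4 genes summed to 11.4 ± 1.30 CPM in attached control and 11.6 ± 0.831 CPM in floating control cells (SD, n = 3 each).

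The genes of DNA replication were read beside the family, since histone supply and replication are normally coupled. Of 30 listed S phase and replication genes, all tested, 28 fell with GFI1 in attached cells, 28 in floating cells, 29 with suspension in control cells and 30 with suspension in GFI1 cells, and none rose in these comparisons. Of all tested genes, 32.8%, 31.1%, 20.5% and 16.3% fell in the same order. Their summed level ran from 3605 to 3721 CPM in attached control, 2481 to 2519 in attached GFI1, 2404 to 2456 in floating control and 1576 to 1771 in floating GFI1 libraries. MCM3, a subunit of the replicative helicase, fell by 0.94 ± 0.06 on the log2 scale with GFI1 in floating cells (adjusted p = 2.96e-13). The attached control libraries thus had the lowest summed histone level and the highest summed replication level. In bulk samples, fewer cells in S phase and less RNA per cell cannot be told apart.

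**Figure D2:**
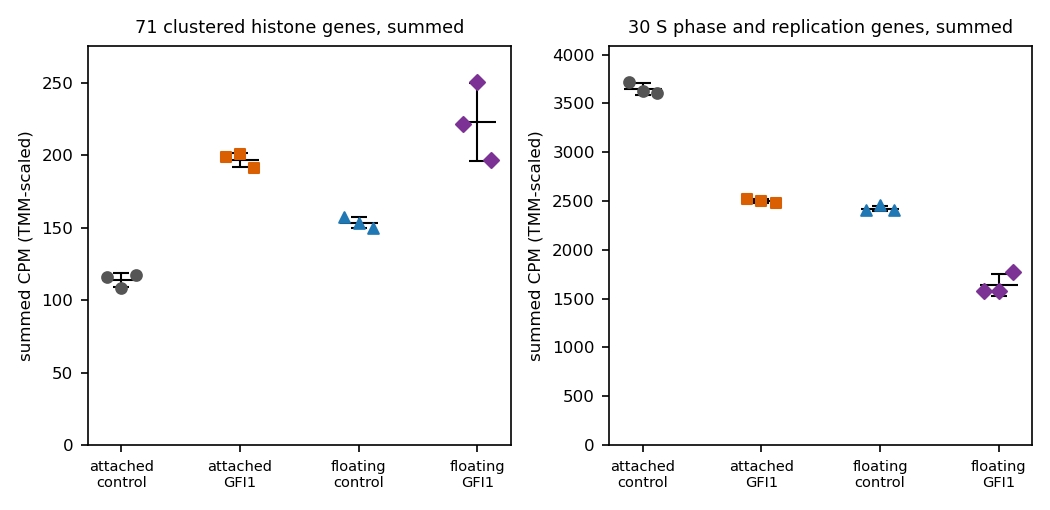
Summed level per library of the 71 clustered histone genes (left) and of the 30 S phase and replication genes (right), in TMM-scaled CPM, for the 4 groups; points are libraries and bars the mean ± SD (n = 3). The histone sum is lowest in attached control libraries (108 to 117 CPM), where the replication sum is highest (3605 to 3721 CPM).

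Other measured shifts moved with the same groups. The 7 markers listed for A549 cells were the epithelial genes KRT8, KRT18, EPCAM and CDH1 and the enzyme genes ALDH1A1, AKR1B10 and NQO1. They were present in all libraries but summed to 21270 to 22470 CPM in attached control and 7687 to 7864 CPM in attached GFI1 libraries. ALDH1A1 alone had a mean of 8245 CPM in attached control and 3024 CPM in attached GFI1 cells. All 7 fell with GFI1 in both states, beside 32.8% (attached) and 31.1% (floating) of all tested genes. The 3 blood markers, 1 of them at 0 in all libraries, summed to at most 0.119 CPM, and the 2 endothelial markers to 0.109 to 0.361 CPM in control and 2.72 to 4.78 CPM in GFI1 libraries. The 3 alveolar type 2 markers summed to 2.01 to 4.36 CPM and the 3 fibroblast markers, 1 of them at 0 in all libraries, to 5.30 to 14.1 CPM. Of the fibroblast markers, 1 rose and 1 fell with GFI1 in both states. The means of COL1A1 were 13.0 CPM in attached control and 6.37 CPM in attached GFI1 cells, and those of PDGFRB 0.133 and 2.22 CPM. Of 32 rows for small RNAs without a poly-A tail, 15 were at 0 counts in all libraries. Only 2 of these small RNAs passed the count filter, and RN7SL2 made up nearly all of the sum. Since the sum rests on 1 gene, it does not show how far such RNA was carried through capture. RN7SL2 was at 456, 706 and 677 CPM in attached control, 406, 160 and 330 in attached GFI1, 768, 646 and 836 in floating control, and 988, 568 and 827 in floating GFI1 libraries. The log2 fold change of RN7SL2 for GFI1 in attached cells was -1.04 ± 0.21 (adjusted p = 0.000127), and for suspension in GFI1 cells 1.41 ± 0.21 (adjusted p = 9.13e-06). The difference of its suspension effects also passed the test (1.12 ± 0.29, adjusted p = 0.0126). Floating GFI1 replicate 3 stood apart, with a second principal component score of -13.6 against -20.6 and -23.9 in the other libraries of its group. The part of these shifts in the histone values was not tested.

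The promoters of 3 genes are shown because these genes had different patterns over the 4 groups: HIST1H2BK and HIST1H1C were higher in GFI1 than in control cells, and HIST1H4H had its largest difference between floating and attached control cells. Each is the 250 bases before the transcription start listed by RefSeq (GRCh38.p14), read 5′ to 3′ toward the start. Capitals mark the motifs TATAAA (the TATA box), CCAAT (the box bound by NF-Y), ATTTGCAT (the octamer of H2B promoters) and AAACACA (the box of H1 promoters), on either strand.
HIST1H2BK (chr6:27146859-27147108, minus strand): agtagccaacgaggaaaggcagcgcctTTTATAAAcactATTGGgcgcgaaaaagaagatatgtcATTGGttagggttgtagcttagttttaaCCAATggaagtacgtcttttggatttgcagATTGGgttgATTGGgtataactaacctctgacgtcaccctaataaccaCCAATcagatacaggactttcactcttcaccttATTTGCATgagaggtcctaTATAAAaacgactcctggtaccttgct
HIST1H1C (chr6:26056471-26056720, minus strand): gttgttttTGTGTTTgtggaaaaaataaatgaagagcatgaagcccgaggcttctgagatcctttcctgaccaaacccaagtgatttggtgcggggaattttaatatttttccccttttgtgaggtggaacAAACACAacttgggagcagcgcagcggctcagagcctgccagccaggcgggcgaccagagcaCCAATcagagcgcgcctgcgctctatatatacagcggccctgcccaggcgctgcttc
HIST1H4H (chr6:26285535-26285784, minus strand): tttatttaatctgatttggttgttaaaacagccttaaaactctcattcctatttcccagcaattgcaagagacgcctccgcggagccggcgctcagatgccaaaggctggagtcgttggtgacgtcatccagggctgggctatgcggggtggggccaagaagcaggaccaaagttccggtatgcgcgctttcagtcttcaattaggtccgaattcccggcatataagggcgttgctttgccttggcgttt

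In the HIST1H2BK promoter, TATAAA begins 27 bases and ATTTGCAT 46 bases before the start, and CCAAT lies on either strand at 6 positions. A forward and a reverse TATAAA overlap in the run of capitals farthest from the start. The HIST1H1C promoter has CCAAT 57 bases before the start and AAACACA 119 bases before it on the forward strand and 242 bases before it on the reverse strand, and the HIST1H4H promoter holds none of the 4 motifs in these 250 bases. RefSeq promoters (300 bases, with 50 after the start, 1 start per gene) were matched for 61 of the 71 genes and compared with all 27305 listed. TATAAA was found in 65.6% of the histone promoters and 11.95% of all, CCAAT in 83.6% and 35.7%, ATTTGCAT in 42.6% and 1.8%, and AAACACA in 14.8% and 5.76%. ATTTGCAT was confined, among these 61, to H2A (11 of 14), H2B (14 of 18) and H3 (1 of 10) promoters, and AAACACA was in all 6 H1 promoters. TATAAA was in 16 of the 25 promoters of tested genes and in 24 of the 36 promoters of genes too low to test. Only exact letters were marked, so similar runs, such as tataag in the HIST1H4H promoter and tatata in the HIST1H1C promoter, were not. A match of letters is a description and not a binding site, and a missing match does not show that a TATA box is absent.

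Many H2A and H2B genes are arranged head to head, and 12 such neighbouring pairs with starts 219 to 357 bases apart were found, holding 23 genes; in 1 of the pairs the minus-strand gene encodes H3. Both genes were tested in 4 pairs, 1 gene in 5 pairs and neither in 3. Since the models of neighbours differ in length, their levels are compared per kb, as means over all libraries. HIST1H2BK was at 89.0 CPM per kb (401 to 995 counts per library), and its neighbour HIST1H2AH, whose start is 331 bases away and whose model also holds only the coding sequence, was at 0.168 CPM per kb (0 to 3 counts). HIST3H2A and HIST3H2BB were at 5.97 and 0.186 CPM per kb, and HIST1H2AC and HIST1H2BC at 13.1 and 3.26 CPM per kb. Other pairs were closer, with HIST2H2BE and HIST2H2AC at 4.24 and 2.91 CPM per kb. The genes HIST1H2BJ and HIST1H2AG, also a pair, were at 2.86 and 1.92 CPM per kb.

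The effect of GFI1 in attached cells was then compared. Of the 26 tested histone genes, 17 rose and 2 fell with GFI1 (quasi-likelihood test of edgeR, p adjusted over 17829 genes by Benjamini-Hochberg, with 0.05 or less as the threshold). Of all tested genes, 62.3% passed the same threshold, 29.5% as higher and 32.8% as lower. The median log2 fold change was 0.65 over the tested histone genes and -0.007 over all genes. With libraries scaled by size only, which moved the median of all genes to 0.14, 18 rose and 1 fell. Genes enter the test when enough libraries reach the count filter, so a gene high in 1 group alone could enter through that group, and these counts describe the 26 tested genes and not the 71.

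The linker histone gene HIST1H1C, which encodes histone H1.2, showed one of the largest rises. Its level was 12.7, 10.9 and 12.2 CPM in attached control libraries and 40.7, 34.9 and 37.5 CPM in attached GFI1 libraries. The groups were far apart, and the log2 fold change was 1.66 ± 0.08 (SE), a 3.15-fold rise (adjusted p = 2.67e-15). The other tested H1 gene, HIST1H1E, which encodes H1.4, was at 0.536 ± 0.136 and 0.557 ± 0.277 CPM (SD, n = 3 each) and did not pass the test (log2 fold change 0.09 ± 0.41, adjusted p = 0.857).

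Of the 11 tested H2B genes, 7 rose and 1 fell. HIST1H2BK, the gene with the most counts, rose from 27.6, 21.8 and 26.3 CPM in attached control to 41.6, 45.9 and 42.0 CPM in attached GFI1 libraries (log2 fold change 0.78 ± 0.07, adjusted p = 8.96e-10). HIST2H2BE, from the cluster on chromosome 1, rose from 4.53, 3.48 and 4.48 to 9.35, 13.2 and 10.3 CPM (1.41 ± 0.14, adjusted p = 2.17e-09). HIST1H2BD rose from 10.5, 9.72 and 11.5 to 15.1, 14.7 and 14.0 CPM (0.46 ± 0.12, adjusted p = 0.00115). In all 3 genes every GFI1 library was above every control library. HIST1H2BC, HIST1H2BJ, HIST1H2BN and HIST2H2BF rose by 0.73 to 0.85 on the log2 scale. HIST1H2BF went the other way, with 6, 12 and 10 counts in attached control and 3, 4 and 2 counts in attached GFI1 libraries (-1.76 ± 0.55, adjusted p = 0.00621). HIST1H2BF reached 10 counts in control libraries alone, so it entered the test through the groups in which it was high. HIST1H2BE (0.42 ± 0.24), HIST1H2BO (0.06 ± 0.49) and HIST3H2BB (-0.75 ± 0.55) did not pass the threshold.

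All 3 H2A genes of the HIST1 cluster that were tested rose. HIST1H2AC was at 14.8, 16.7 and 15.8 CPM in attached control and 23.9, 25.4 and 22.6 CPM in attached GFI1 libraries (0.60 ± 0.09, adjusted p = 1.21e-06). HIST1H2AG rose by 0.69 ± 0.15 and HIST1H2AI by 0.95 ± 0.27. HIST3H2A, the H2A gene of the HIST3 cluster, was at 5.34 ± 0.223 and 4.15 ± 0.116 CPM (SD, n = 3 each), which did not pass the threshold (-0.36 ± 0.17, adjusted p = 0.0671). It did pass without floating GFI1 replicate 2 or 3 (-0.34 and -0.37, adjusted p = 0.0433 and 0.0291), libraries of neither group compared. HIST3H2A also passed in the fit of just the 2 groups compared, and every GFI1 library was below every control library. HIST2H2AC did not pass the threshold (-0.27 ± 0.29, adjusted p = 0.436).

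Of the 4 tested H3 genes, HIST1H3H, HIST1H3E and HIST1H3B rose. HIST1H3H was at 2.50, 3.48 and 2.81 CPM in attached control and 5.80, 5.59 and 6.86 CPM in attached GFI1 libraries (1.05 ± 0.16, adjusted p = 2.39e-06). HIST1H3B rose by 0.94 ± 0.30 (adjusted p = 0.0085), a call that was lost without attached control replicate 3 (0.75, adjusted p = 0.0533).

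All 4 tested H4 genes passed the threshold, 3 as higher. HIST1H4I rose from 7.50, 7.60 and 9.24 to 12.7, 9.42 and 13.8 CPM (0.56 ± 0.13, adjusted p = 0.000444). The lowest GFI1 library of HIST1H4I was just above the highest control library. HIST1H4H rose from 51, 32 and 50 counts to 117, 136 and 109 counts per library (1.27 ± 0.39, adjusted p = 0.00636), a call lost in edgeR's robust fit (adjusted p = 0.114). HIST1H4E was at 0.251 ± 0.203 CPM in attached control and 0.841 ± 0.235 CPM in attached GFI1 cells (SD, n = 3 each). It rose by 1.72 ± 0.48 (adjusted p = 0.00297), with a range of 1.23 to 2.49 over the fits without 1 of the libraries. The attached control libraries of HIST1H4E, with 4, 1 and 8 counts, fell short of the count filter. HIST1H4E thus entered the test through the other groups, in which it was higher. HIST4H4 fell from 1.85, 2.28 and 1.89 to 1.41, 1.15 and 1.15 CPM (-0.70 ± 0.30, adjusted p = 0.0469). That call was lost when any 1 of the 6 attached libraries or floating control replicate 1 was left out (adjusted p = 0.052 to 0.148).

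**Figure D3:**
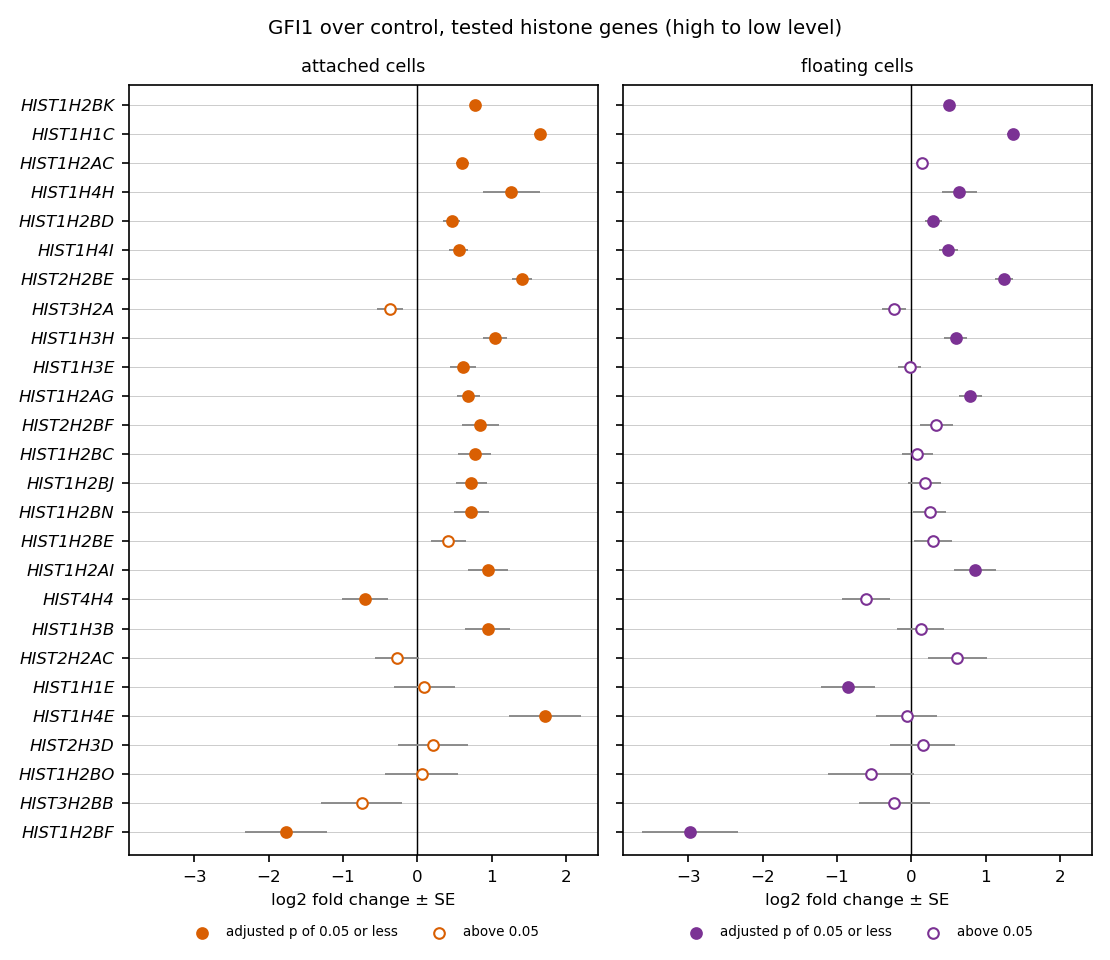
Log2 fold change of GFI1 over control for the 26 tested histone genes in attached cells (left) and floating cells (right), with the SE as bars; filled points have an adjusted p of 0.05 or less. In attached cells 17 points are filled to the right of 0 and 2 to the left, and in floating cells 9 and 2. HIST1H2BF in floating cells is drawn at its fitted value of -2.98, while its counts give only a bound of at least 3.79-fold lower.

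In floating cells, GFI1 was compared in the same way. Of the 26 tested histone genes, 9 rose and 2 fell, beside 60.4% of all tested genes passing the threshold (29.3% higher, 31.1% lower). The median log2 fold change was 0.21 over the tested histone genes and 0.011 over all genes. With libraries scaled by size only, the median of all genes was 0.14, and 10 rose and 1 fell. This comparison uses different libraries from the one in attached cells but was fitted with them in 1 model.

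HIST1H1C again had one of the largest rises, from 16.4, 15.6 and 17.2 CPM in floating control to 42.9, 45.2 and 39.2 CPM in floating GFI1 libraries (1.37 ± 0.08, adjusted p = 5.06e-14). HIST2H2BE rose from 6.16, 7.10 and 6.35 to 15.1, 16.6 and 14.9 CPM (1.25 ± 0.12, adjusted p = 3.14e-09). HIST1H2BK rose from 28.2, 28.4 and 26.8 to 39.3, 41.6 and 37.7 CPM (0.51 ± 0.07, adjusted p = 1.34e-06). The groups did not overlap in any of these genes. HIST1H2AG rose from 3.14, 3.43 and 2.55 to 5.02, 5.51 and 5.27 CPM (0.79 ± 0.16, adjusted p = 0.000113). HIST1H2AI (0.85 ± 0.28), HIST1H3H (0.59 ± 0.15) and HIST1H4I (0.50 ± 0.13) also rose.

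Some calls in floating cells rested on single libraries. HIST1H2BD rose by 0.30 ± 0.11 (adjusted p = 0.0294), which was lost without floating control replicate 1, floating control replicate 2 or floating GFI1 replicate 2 (0.26, 0.22 and 0.17, with adjusted p = 0.104, 0.147 and 0.203). HIST1H4H rose by 0.64 ± 0.24 (adjusted p = 0.0223) from 348, 296 and 230 counts in floating control to 491, 751 and 248 counts in floating GFI1 libraries. In CPM, floating GFI1 replicate 3 was at 12.3, below the floating controls at 13.0 to 20.6, and the call was lost without floating GFI1 replicate 2 (0.20, adjusted p = 0.357) or floating control replicate 3 (0.48, adjusted p = 0.131). HIST1H1E fell by 0.85 ± 0.36 on the log2 scale (adjusted p = 0.0431), from 22, 17 and 17 counts to 12, 11 and 11 counts. That call was lost when any 1 of the 6 floating libraries or attached control replicate 1 was left out (adjusted p = 0.0517 to 0.153).

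HIST1H2BF, an H2B gene of the HIST1 cluster, also fell in floating cells, again having entered the test through the control libraries. It had 9, 11 and 11 counts in floating control and 2, 2 and 0 counts in floating GFI1 libraries. Since the GFI1 libraries were all under 3 counts, the fold is a bound computed with 3 counts per library in their place, and HIST1H2BF was at least 3.79-fold lower in floating GFI1 cells (adjusted p = 0.000192). With only the groups compared it did not pass the count filter in either state and was not tested. HIST1H2AC, which rose in attached cells, was at 24.0, 21.5 and 22.6 CPM in floating control and 24.1, 28.6 and 22.9 CPM in floating GFI1 libraries. These groups overlapped, and the change did not pass the threshold (0.15 ± 0.08, adjusted p = 0.129), though it did without floating GFI1 replicate 3 (0.21, adjusted p = 0.0354). HIST1H3E (-0.02 ± 0.15) and HIST1H4E (-0.06 ± 0.41), which rose with GFI1 in attached cells, did not pass the threshold in floating cells. HIST4H4 passed it as lower without floating control replicate 2 (-0.86, adjusted p = 0.028) or floating GFI1 replicate 1 (-0.96, adjusted p = 0.0251), HIST3H2A as lower without floating GFI1 replicate 2 (-0.48, adjusted p = 0.011) and HIST2H2BF as higher without floating control replicate 3 (0.65, adjusted p = 0.0224).

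The effect of suspension was compared in control cells. This comparison shares the attached control libraries with the GFI1 comparison in attached cells. Of the 26 tested histone genes, 10 rose and 1 fell, beside 40.1% of all tested genes passing the threshold (19.6% higher, 20.5% lower). The median log2 fold change was 0.29 over the tested histone genes and 0.011 over all genes.

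HIST1H4H, an H4 gene, had the largest estimate. It had 51, 32 and 50 counts in attached control and 348, 296 and 230 counts in floating control libraries, which is 3.04, 1.74 and 2.87 against 20.6, 17.8 and 13.0 CPM. The log2 fold change was 2.76 ± 0.34 (adjusted p = 3.03e-07), with a range of 2.53 to 2.92 over the fits without 1 of the libraries. HIST1H3E, an H3 gene, rose from 2.44, 2.66 and 3.27 to 4.86, 6.02 and 5.21 CPM (0.94 ± 0.17, adjusted p = 5.86e-05). HIST1H2AC rose from 15.8 ± 0.954 to 22.7 ± 1.26 CPM (SD, n = 3 each; 0.52 ± 0.09, adjusted p = 2.82e-05). HIST1H1C rose by 0.46 ± 0.09 (adjusted p = 0.000189) and HIST2H2BE by 0.66 ± 0.15 (adjusted p = 0.00104).

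HIST2H2AC, an H2A gene of the chromosome 1 cluster that lies head to head with HIST2H2BE, was the gene that fell. Its level was 1.85, 1.96 and 1.44 CPM in attached control and 0.474, 0.722 and 0.397 CPM in floating control libraries (-1.71 ± 0.36, adjusted p = 0.000353). The groups did not overlap, while its neighbour HIST2H2BE rose in the same comparison. In counts, HIST2H2AC was at 31, 36 and 25 in attached control and 8, 12 and 7 in floating control libraries. HIST2H2AC thus entered the test through the other groups, in which it was higher. HIST1H2BK, the most abundant member, was at 25.2 ± 3.07 and 27.8 ± 0.847 CPM (SD, n = 3 each) and did not pass the threshold (0.14 ± 0.08, adjusted p = 0.157).

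The other calls in this comparison were lost without single libraries. HIST1H4E rose by 1.48 ± 0.51 (adjusted p = 0.0196), lost without attached control replicate 1, attached control replicate 2 or floating control replicate 2 (1.46, 0.99 and 1.40, with adjusted p = 0.0555, 0.128 and 0.0592). Here too, HIST1H4E had entered the test through groups other than attached control, whose libraries had 4, 1 and 8 counts. HIST1H1E rose by 1.03 ± 0.37 (adjusted p = 0.0289), lost without attached control replicate 1, attached control replicate 2 or floating control replicate 1 (1.11, 0.83 and 0.89, with adjusted p = 0.0526, 0.133 and 0.117). HIST1H2BC rose by 0.73 ± 0.22 (adjusted p = 0.0112), lost without attached control replicate 2 (0.54, adjusted p = 0.0816) or floating control replicate 2 (0.58, adjusted p = 0.0717). HIST2H2BF rose by 0.87 ± 0.26 (adjusted p = 0.00827), lost without attached control replicate 3 (0.69, adjusted p = 0.0576) or floating control replicate 3 (0.55, adjusted p = 0.12). HIST1H3H rose by 0.43 ± 0.17 (adjusted p = 0.0478), a call lost without attached control replicates 1 or 3, attached GFI1 replicate 1 or any floating control library (adjusted p = 0.0538 to 0.179).

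**Figure D4:**
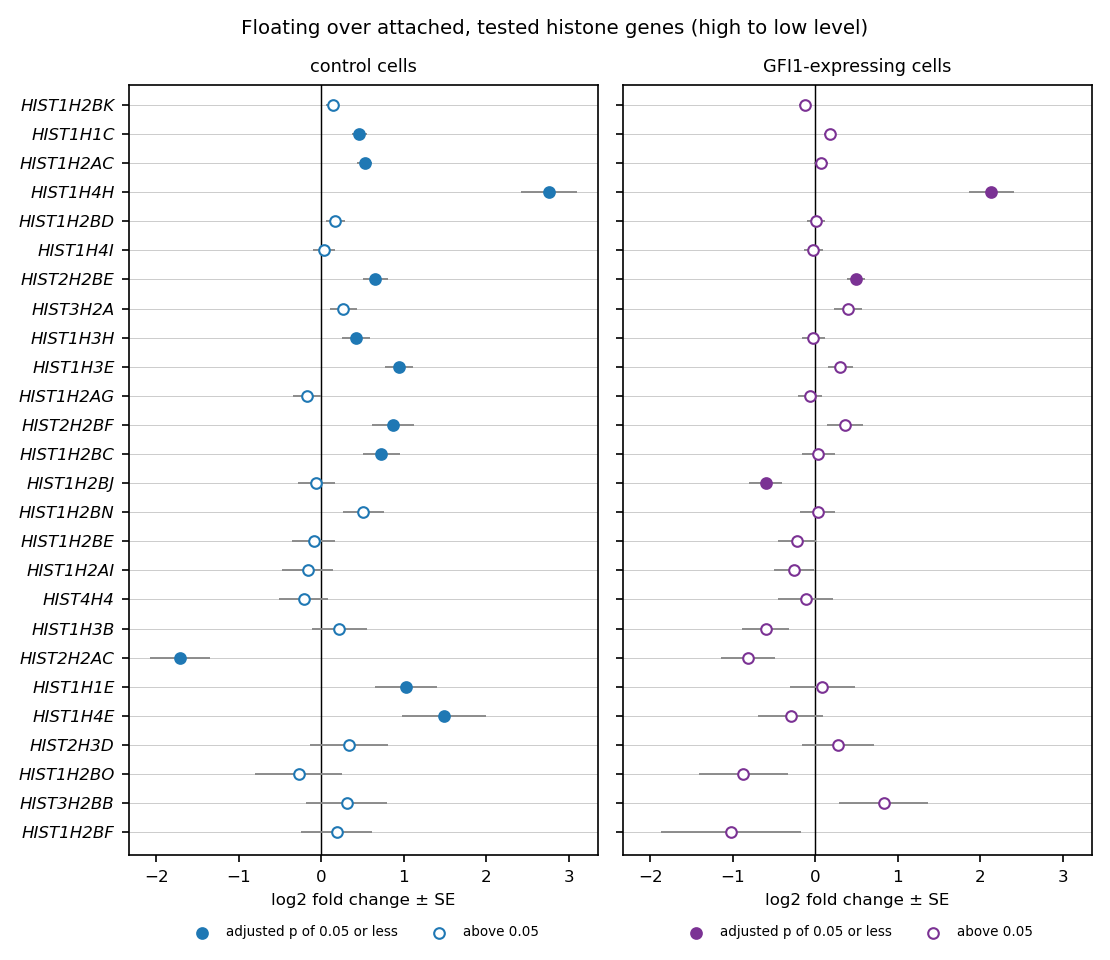
Log2 fold change of floating over attached cells for the 26 tested histone genes in control cells (left) and GFI1-expressing cells (right), with the SE as bars; filled points have an adjusted p of 0.05 or less. HIST1H4H lies farthest to the right in both panels, at 2.76 and 2.13, and 3 points are filled in GFI1-expressing cells. The point of HIST1H2BF in GFI1-expressing cells is the fitted value, though its floating GFI1 libraries were all under 3 counts.

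In GFI1-expressing cells, fewer histone genes passed the threshold with suspension. Of the 26 tested, 2 rose and 1 fell, beside 31.3% of all tested genes (15% higher, 16.3% lower), and the median log2 fold change was -0.011 over the tested histone genes and 0.002 over all genes. With HIST1H2BF set to its bound, the median was 0.001.

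HIST1H4H rose again, from 117, 136 and 109 counts in attached GFI1 to 491, 751 and 248 counts in floating GFI1 libraries. The floating libraries were widely spread but all lay above the attached libraries, and the log2 fold change was 2.13 ± 0.27 (adjusted p = 8.35e-07). Without floating GFI1 replicate 2, the library with the highest level, it was 1.66, the lowest value over the 12 fits that left out 1 library, and the highest was 2.49. HIST2H2BE rose by 0.49 ± 0.11 (adjusted p = 0.00139). HIST1H2BJ, an H2B gene, fell from 3.49, 4.15 and 3.76 to 2.37, 3.25 and 1.94 CPM (-0.60 ± 0.20, adjusted p = 0.0238). That call was lost without attached GFI1 replicate 2 or 3 or floating GFI1 replicate 1 or 3 (-0.53, -0.61, -0.58 and -0.44, with adjusted p = 0.0935, 0.0503, 0.0656 and 0.127).

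The genes with the most counts showed little difference here. HIST1H2BK was at 43.2 ± 2.41 CPM in attached GFI1 and 39.5 ± 2.00 CPM in floating GFI1 cells (SD, n = 3 each; -0.13 ± 0.07, adjusted p = 0.165). HIST1H1C was at 37.7 ± 2.92 and 42.4 ± 3.01 CPM (0.17 ± 0.07, adjusted p = 0.06), and passed the threshold without attached GFI1 replicate 1 (0.23, adjusted p = 0.0235) or floating GFI1 replicate 3 (0.23, adjusted p = 0.0162). Leaving out floating GFI1 replicate 3 also brought HIST3H2A past the threshold (0.60, adjusted p = 0.00332), and leaving out attached GFI1 replicate 3 did so for HIST2H2AC (-1.11, adjusted p = 0.00975). HIST1H2BD (0.003 ± 0.11) and HIST1H4I (-0.02 ± 0.12) were close to 0.

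**Figure D5:**
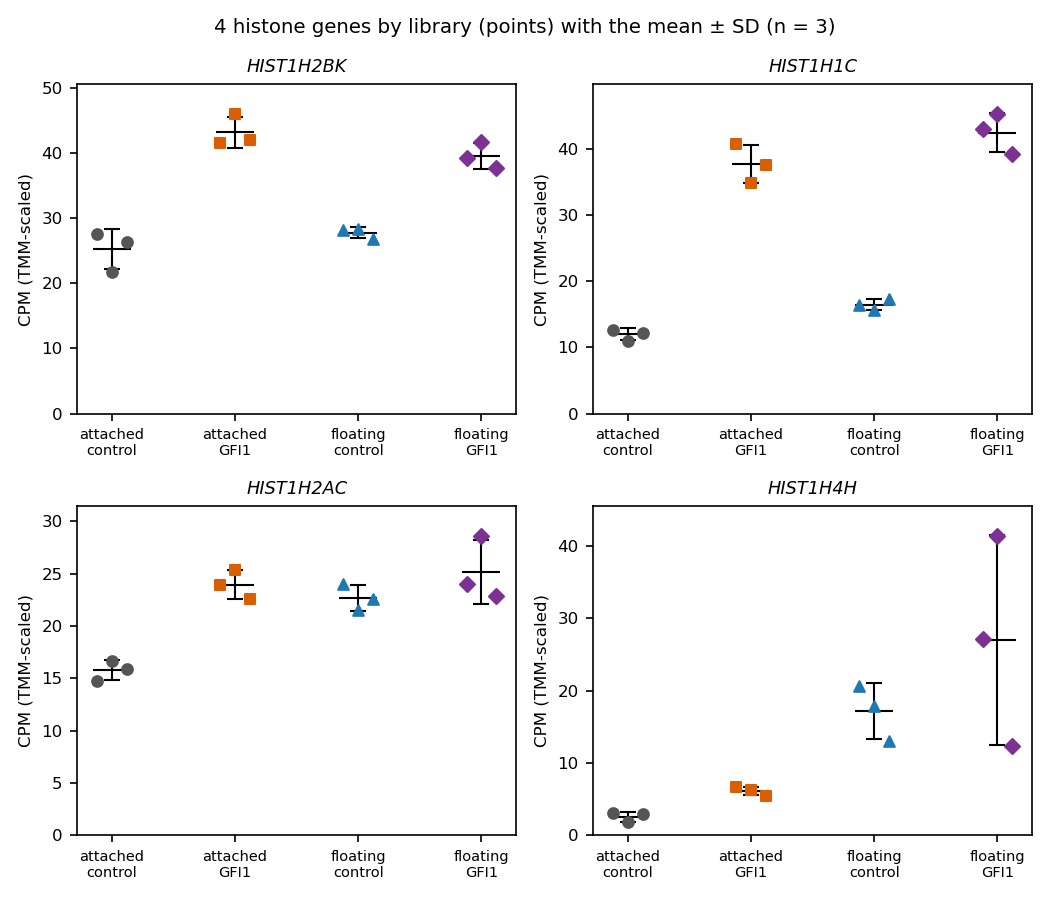
Level of HIST1H2BK, HIST1H1C, HIST1H2AC and HIST1H4H per library (points) in the 4 groups, in TMM-scaled CPM, with the mean ± SD (n = 3). HIST1H1C and HIST1H2BK differ between control and GFI1 cells, HIST1H2AC is lowest in attached control cells (14.8 to 16.7 CPM), and HIST1H4H is higher in floating cells with a wide spread in floating GFI1 libraries (12.3 to 41.4 CPM).

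Whether the suspension effect itself differed between GFI1 and control cells was tested as an interaction, which draws on all 12 libraries. Of the 26 tested histone genes, 1 passed the threshold, as lower, beside 10.8% of all tested genes (4.76% higher, 6.01% lower). This was HIST1H2AC, for which the log2 suspension effect was 0.46 ± 0.12 smaller in GFI1 cells (difference -0.46, adjusted p = 0.0132). The median difference was -0.37 over the tested histone genes and -0.004 over all genes. HIST1H3E (-0.64 ± 0.23, adjusted p = 0.0745), HIST1H4E (-1.78 ± 0.64, adjusted p = 0.0741), HIST1H2BK (-0.27 ± 0.10, adjusted p = 0.101) and HIST1H1C (-0.29 ± 0.11, adjusted p = 0.115) did not pass the threshold.

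Single libraries moved this count. It was 2 without attached control replicate 1 (adding HIST1H2BK, -0.34, adjusted p = 0.0453), without attached control replicate 3 (adding HIST1H4E, -2.55, adjusted p = 0.0278) or without floating GFI1 replicate 1 (adding HIST1H3E, -0.77, adjusted p = 0.0425). It was 4 without floating GFI1 replicate 2, adding HIST1H2BK (-0.33), HIST1H1C (-0.35) and HIST1H4H (-1.10). HIST1H2AC passed the threshold in all 12 of these fits.

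Beyond the family, the genes that make, process and store histones were read from lists. Of 25 listed genes for histone mRNA expression and 3′ end processing, all tested, 2 rose and 15 fell with GFI1 in attached cells, 5 rose and 9 fell with GFI1 in floating cells, 2 rose and 15 fell with suspension in control cells, and 1 rose and 12 fell with suspension in GFI1 cells. Of all tested genes, 29.5% rose and 32.8% fell in the first of these comparisons, 29.3% and 31.1% in the second, 19.6% and 20.5% in the third and 15% and 16.3% in the last, and the list's 5 and 9 of 25 for GFI1 in floating cells were near the background. SLBP, which binds the stem-loop, was at 88.4 ± 6.05 CPM in attached control, 66.8 ± 2.31 in attached GFI1, 62.6 ± 4.01 in floating control and 57.7 ± 3.60 in floating GFI1 cells (SD, n = 3 each). TUT7, a terminal uridylyltransferase that acts in histone mRNA decay, rose with GFI1 in attached cells (0.44 ± 0.06, adjusted p = 2.2e-07). In the same comparison TUT4 (-0.58 ± 0.06, adjusted p = 1.23e-08) and ERI1 (-0.40 ± 0.06, adjusted p = 1.48e-06), both on this list, fell. E2F1, a transcription factor of S phase genes, fell with suspension in control cells (-0.91 ± 0.06, adjusted p = 2.83e-11).

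Of 24 listed histone chaperones, which carry histones to DNA, 4 rose and 15 fell with GFI1 in attached cells, 5 rose and 12 fell in floating cells, 3 rose and 17 fell with suspension in control cells, and 1 rose and 15 fell with suspension in GFI1 cells. Of all tested genes, 29.5% rose and 32.8% fell in the first of these comparisons and 29.3% and 31.1% in the second. The shares were 19.6% and 20.5% in the third and 15% and 16.3% in the last. ASF1A rose with GFI1 in attached cells (0.98 ± 0.07, adjusted p = 1.15e-11), and ANP32E, a chaperone of H2A.Z, fell (-0.99 ± 0.05, adjusted p = 5.1e-15). ASF1B, also a chaperone, was at 64.73 ± 2.92 CPM in attached control and 40.55 ± 1.58 CPM in attached GFI1 cells (SD, n = 3 each). Of 12 tested genes for histone variants that lie outside the clusters, 4 rose and 5 fell with GFI1 in attached cells, and 3 rose and 4 fell in floating cells. None rose with suspension, while 9 fell in control and 7 in GFI1 cells. The counts of variant genes in both GFI1 comparisons were near the shares of all tested genes (29.5% and 32.8% in attached, 29.3% and 31.1% in floating cells). H1F0, a replacement linker histone, was at 222.1 ± 2.00 and 351.3 ± 10.2 CPM in attached control and attached GFI1 cells (SD, n = 3 each; 0.66 ± 0.05, adjusted p = 3.01e-12). H2AFX, the variant that is phosphorylated at DNA breaks, fell with GFI1 in attached cells (-0.66 ± 0.05, adjusted p = 1.92e-11).

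The introduced gene checked the labels. GFI1 had 4 to 12 counts in the control libraries and 5154 to 12796 counts in the GFI1 libraries, and the counts do not separate introduced from endogenous transcript. The attached or floating part of the labels was not checked in this way. GFI1 was at 290.4, 294.4 and 285.6 CPM in attached GFI1 libraries and at 544.6, 705.5 and 430.2 CPM in floating GFI1 libraries. Suspension in GFI1 cells and the interaction thus compare groups that also differ in GFI1 level. The part of this difference in the histone values was not tested.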

How the data were processed

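RNA-Seq counts of 12 A549 libraries, 3 in each of 4 labelled groups, were analysed. The deposited values are raw counts per gene, which the authors made from poly-T-selected mRNA sequenced on a NovaSeq system. The study's methods name Hisat2 and featureCounts with GRCh38, and the submitters' processing notes name Bowtie2 and HTSeq with hg38. The annotation release and the strand setting are not given in the sources used here, so overlapping and antisense genes cannot be separated. No other column of values was used. Counts of near-identical genes depend on how reads with several matches were handled, which is not stated.

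Total counts were 17014188 to 20748677 per library, and a count of 0 allows up to 3 counts. This floor covers counting error only. An SD is the spread between 3 libraries, and an SE is that of the fitted log2 fold change. Genes were kept by filterByExpr (minimum count 10, minimum total count 15), which left 17829 genes. Libraries were scaled by TMM. In R 4.3.3, edgeR 4.0.16 fitted 1 quasi-likelihood model with 4 group means, and 5 contrasts were tested, two-sided, with Benjamini-Hochberg adjustment over all tested genes. A gene was called at an adjusted p of at most 0.05, with no fold threshold. The code was tested on simulated data.

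The histone genes and the lists were chosen with earlier results of these data known. The rule for full statistics took, per contrast, the called members at either extreme of the log2 fold change (at most 4 each) and the 5 members with the highest CPM per kb. From each other list, the gene of smallest adjusted p per direction could be named. SLBP, E2F1 and any further member or listed gene given with values were chosen after their values were seen. Stem-loops were searched in GRCh38 with GENCODE v44, in which 66 of the 71 genes were found by identifier, and promoters are those of RefSeq (GRCh38.p14). Alternatives were DESeq2 1.42.0, scaling by RLE, upper quartile or library size, a stricter filter (10 counts or more throughout) and none, a robust fit, a replicate block, a fit of just the 2 groups compared, a call rule that also asks for a 2-fold change, and leaving out each library in turn.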

Additional observations from a re-analysis of the deposited data

Results flagged for a closer look

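The suspension effect of HIST1H2AC differed between control and GFI1-expressing cells by a test of the difference itself (edgeR's interaction term, log2 difference -0.46 ± 0.12 SE, adjusted p = 0.0132). In control cells HIST1H2AC rose with suspension in 3 of 3 libraries above every attached library (0.52 ± 0.09), and in GFI1 cells the change was 0.07 ± 0.08. Over the 12 fits that each left out 1 library, the difference ran from -0.57 to -0.39.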

How the results depend on the processing

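The counts of called histone genes stayed within 1.5 times of those reported under all scalings, filters and tests tried, apart from the following. Where calls also needed a 2-fold change, the counts were 6 and 3 for GFI1 in attached and floating cells, 4 and 1 for suspension in control and GFI1 cells, and 0 for the interaction. Without the low-count filter the interaction count was 2, which added HIST1H4H. Over the fits that left out 1 library, the interaction count ran from 1 to 4. Of the called genes, 17 of 19, 8 of 11, 6 of 11, 2 of 3 and 1 of 1 were called in all 12 of those fits, in the same order of comparisons. Scaling by library size only moved the median of all genes to 0.14 in both GFI1 comparisons, and the share of called genes that were higher went from 47.4% to 61.5% (attached) and from 48.5% to 61.4% (floating). DESeq2 lost HIST4H4 in attached cells, HIST1H1E, HIST1H2BD and HIST1H4H in floating cells, HIST1H1E and HIST1H3H with suspension in control cells, and HIST1H2BJ with suspension in GFI1 cells. The robust fit lost HIST1H4H in both GFI1 comparisons, and fitting only the groups compared lost HIST1H2BD and HIST1H4H in floating cells and HIST1H3H with suspension in control cells. The latter fit added HIST3H2A for GFI1 in attached cells. HIST1H2BF was not tested in that fit, and HIST1H2BF, HIST1H4E, HIST1H1E and HIST2H2AC were not tested under the stricter filter, since they did not pass it.

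Replicate numbers do not pair the libraries, since the deviations of same-numbered libraries correlated between -0.031 and 0.031. With the replicate block the counts were 19, 10, 10, 3 and 1, with HIST1H1E (GFI1 in floating cells) and HIST1H3H (suspension in control cells) lost. The family's share of counts without genes that overlap another gene was 0.00923% in attached control, 0.0182% in attached GFI1 and 0.0129% in floating control cells, and relative to counts of protein-coding genes it was 0.0213% in attached GFI1 and 0.0152% in floating control cells.

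Changes close to 0 turned sign. For HIST1H4I, suspension in control cells gave -0.0328 to 0.132 over the fits that left out 1 library, suspension in GFI1 cells -0.17 to 0.095, and the interaction -0.20 to 0.0663. For HIST1H2BD, suspension in GFI1 cells gave -0.0023 with DESeq2, -0.0014 with RLE, -0.0031 with only the 2 groups compared and -0.14 to 0.10 without single libraries. For HIST1H2AC, the same comparison gave -0.0468 to 0.134. The cause was not tested. Genes with fewer than about 10 counts per library were limited by depth.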

Other observations

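Rows of the same naming that are annotated as pseudogenes, and so lie outside the family, also carried counts. HIST2H2BC, a transcribed pseudogene of H2B, had 122, 158 and 160 counts in attached control, 256, 256 and 277 in attached GFI1, 177, 189 and 165 in floating control and 295, 270 and 306 in floating GFI1 libraries. Every GFI1 library of HIST2H2BC was above every control library. HIST2H2BD, another transcribed pseudogene, had 33 to 50 counts in attached control, 82 to 93 in attached GFI1, 63 to 75 in floating control and 92 to 98 in floating GFI1 libraries. The other 17 pseudogene rows had at most 6 counts in any library. These rows were chosen after their values were seen and were not tested here.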
